A study of Mus musculus with 18 samples.

Results

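The question was whether mammary fibroblasts that differ in surface CD26 answer tumour-secreted factors alike. Cultured normal fibroblasts (NFs) from the mammary gland of FVB/n mice, sorted as CD26- or CD26+, received either control conditioned medium or medium conditioned by tumour cells (CM) over 7 days, and their polyadenylated RNA was sequenced. CM came from 6 WEPtn lines (13-MCB-17, 10-SJK-221, 18-MCB-12, 13-MCB-44, 13-MCB-90 and 13-MCB-138), grown from mouse mammary tumours that model invasive lobular carcinoma, and CM of each line went onto 1 CD26- and 1 CD26+ culture. The difference in CM effect was the change from control to CM in CD26+ NFs minus the same change in CD26- NFs, estimated in 1 model of all 18 libraries and their 4 groups: CD26- control (replicates 1 to 3), CD26- CM (replicates 4 to 9), CD26+ control (replicates 10 to 12) and CD26+ CM (replicates 13 to 18). A positive difference means that CM raised a gene more, or lowered it less, in CD26+ NFs. It was tested in 14273 of 55486 genes, all that passed a filter on low counts, and 1075 of them passed an adjusted p of 0.05. The fibroblasts were isolated from pools of several female mice aged 8 to 16 weeks and grown on collagen-coated plates, and p-values measure the spread between these cultures.

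CD26 is a peptidase of the cell surface encoded by Dpp4, and in connective tissue it marks fibroblasts with progenitor features. Fibroblasts exposed to tumour-derived factors can take up an inflammatory programme, in which NF-kB, a family of transcription factors held in the cytoplasm by IkB inhibitors, drives chemokines, cytokines and its own inhibitors. Interferon-stimulated genes form a separate response that is set off by interferon receptors and includes the guanylate-binding proteins and the RNA sensors. Cell division genes are a further programme, repressed in resting cells through the DREAM complex.

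Total counts ran from 9725723 to 14585349 per library. The cultures did not match their labels in all respects. Transcripts of epithelial markers, among them Krt8, Krt18 and Epcam, were present in every library although the sort had removed EpCAM+ cells, and their summed level was 5431 to 6135 CPM (counts scaled by library size) in CD26- control, 3578 to 5827 in CD26- CM, 865 to 1605 in CD26+ control and 808 to 1959 in CD26+ CM cultures. Summed fibroblast markers were 17240 to 19234, 11129 to 22615, 63457 to 80515 and 31735 to 53628 CPM in the same order. Of the 14 fibroblast markers, CM raised 7 and lowered 2 in CD26- NFs, and raised 6 and lowered 5 in CD26+ NFs. In CD26+ control cultures the median sum was 72684 CPM, with medians of 27284 for Col1a1, 17151 for Col1a2 and 23116 for Col3a1. In CD26+ NFs these collagens fell with CM, whereas Dcn rose, from 366 to 436 CPM in control to 1378 to 4408 in CM cultures. Summed immune cell markers were 162 to 172, 119 to 173, 36.7 to 53.7 and 41.9 to 70.9 CPM in the order of groups given first. Of these, Ptprc, the common leukocyte antigen, had 0 to 3 counts in every library, whereas Lcp1, an actin-bundling protein, had 1166 to 2046 counts in CD26- and 182 to 509 in CD26+ libraries and Csf1r, the receptor of macrophage colony-stimulating factor, 142 to 338 in all. The part of immune cells in the results was not tested. Dpp4 itself was between 0 and 0.171 CPM in CD26- control and between 0 and 0.0809 CPM in CD26+ control cultures, so in the control cultures the sort could not be checked by its own gene. In CM cultures it ranged from 0.0776 to 0.881 CPM, with a median of 0.326, in CD26- and from 0.715 to 7.8 CPM, with a median of 3.16, in CD26+ NFs, and its difference in CM effect was 3.82 ± 2.61 (log2, SE; adjusted p = 0.37). The 14 markers of CD26+ progenitor fibroblasts, Dpp4 included, summed to 768 to 801 CPM in CD26- control and 416 to 472 in CD26+ control cultures. Pi16, a member, was at 0.203 to 0.484 CPM in CD26- control and 6.38 to 9.19 in CD26+ control cultures. In bulk RNA, a change in the share of a cell type and a change of RNA per cell cannot be told apart. With the epithelial level of each library as a covariate, 1034 genes passed and 953 of them were among the 1075. Beyond that covariate, the part of epithelial transcripts in the results was not tested.

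**Figure D1:**
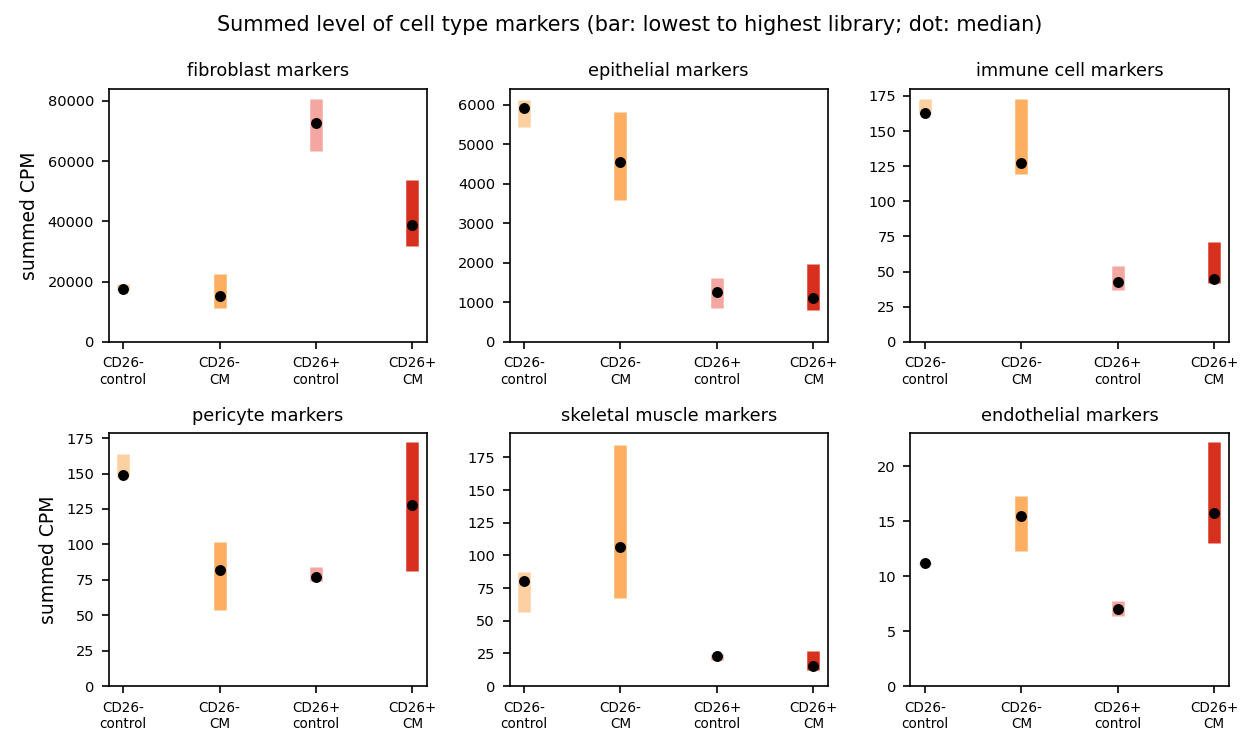
Summed level (CPM, y axis) of the markers of 6 cell types in the 4 groups (x axis), with a bar from the lowest to the highest library and a dot at the median. Epithelial markers were at 5431 to 6135 CPM in CD26- control and 865 to 1605 CPM in CD26+ control cultures, and skeletal muscle markers reached 185 CPM in CD26- CM cultures.

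Tumour CM changed more genes in CD26+ than in CD26- NFs. The CM effect passed in 4087 genes of CD26+ NFs (28.6% of those tested) and in 2164 genes of CD26- NFs (15.2%), with nearly equal median SEs of 0.114 and 0.115. The difference passed in 1075 genes (7.53%). It was positive in 646 (4.53%) and negative in 429 (3.01%), and 56 (0.392%) also exceeded a log2 difference of 2 either way. The count depended on single libraries: it was 2345 without CD26+ CM replicate 18 (line 13-MCB-138), which held 1074 of the 1075, and it dropped to 339 when CD26+ control replicate 11 was left out, to 554 and 622 for replicates 12 and 10 of that group, and to 454, 625 and 661 for CD26- control replicates 3, 1 and 2. Libraries given CM of the same line deviated together, and a fit blocked on the line called 2516 genes, 1073 of the 1075 included. The split by direction depended on scaling: upper-quartile factors gave 536 positive and 581 negative differences, where the median over all genes moved from 0.00627 to -0.027.

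The 1075 genes were sorted by which CM effect passed in the same fit. A change in 1 population alone means here that the effect passed there and missed the threshold in the other. In CD26+ NFs alone, 402 genes rose and 276 fell. In CD26- NFs alone, 98 rose and 119 fell. These 678 and 217 genes were 21.9% of the 3092 genes that CM changed in CD26+ NFs alone and 18.6% of the 1169 that it changed in CD26- NFs alone. Both effects passed with the same sign in 65 genes, of which 62 had the larger effect in CD26+ NFs and 3 in CD26- NFs, and both passed with opposite signs in 61, where 39 rose in CD26+ and fell in CD26- NFs. In 54 genes neither effect passed by itself. These counts depended on single libraries. Leaving out any 1 of the 6 control libraries gave 225 to 428 genes in CD26+ NFs alone, 55 to 146 in CD26- NFs alone, 21 to 35 with the same sign and 11 to 41 with opposite signs, the lowest without CD26- control replicate 3 or CD26+ control replicate 11. Without CD26+ CM replicate 18 they were 1549, 305, 220 and 125, without CD26- CM replicate 7 there were 361 in CD26- NFs alone and 97 with opposite signs, and the last count was 34 to 40 without CM replicate 4, 5, 6, 8 or 17 and 40 with the epithelial covariate. A missed threshold does not show that the other population did not respond, so the interval of its effect was read as well: the 95% interval lay within a 1.5-fold change either way for 310 of the 402, 207 of the 276, 79 of the 98 and 102 of the 119 genes. Of all 995 genes that CM changed in both populations, 934 changed in the same direction and the difference passed in 65 of those. Among the genes of the CD26+ class named below, CM and control libraries of CD26- NFs also did not overlap for Btg2, Eda2r, F11r, Golga7 and Mdm2, which were lower in CM, and for Il6ra, Pold1, Pold2, Ppp3ca, Relb, Rxra, Slco2a1 and Vegfa, which were higher. The plot of both CM effects gives these classes. At the limit of the test, Mgme1 passed with a difference of -0.57 and an adjusted p of 0.04995, and Arhgef25 missed it with -0.44 and 0.0502.

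**Figure D2:**
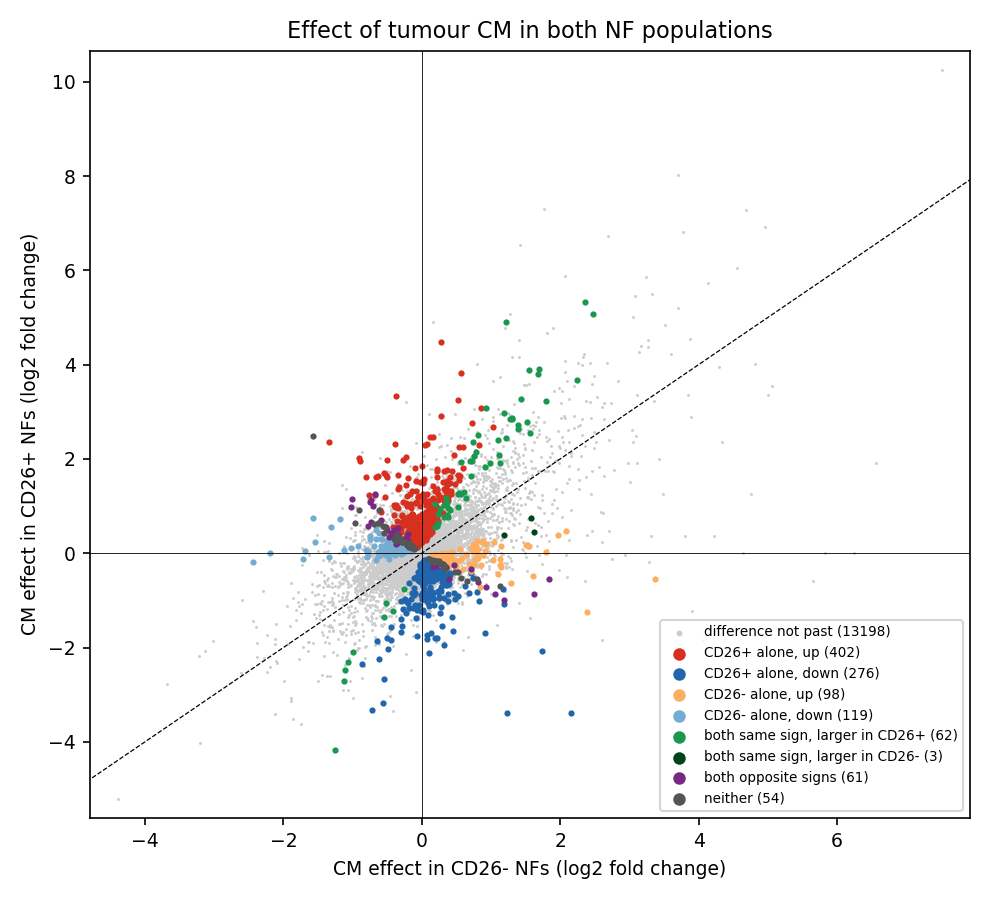
CM effect (log2 fold change) in CD26- NFs (x axis) and CD26+ NFs (y axis) for each tested gene, with genes past the adjusted p for the difference coloured by class and the dashed line marking equal effects. The 402 genes that rose in CD26+ NFs alone lie along the vertical axis, and the 61 genes with opposite signs lie in the upper left and lower right quadrants.

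NF-kB genes that differed all did so toward CD26+ NFs. All 27 listed subunits, inhibitors, kinases and adaptors were tested. CM raised 14 and lowered 2 in CD26+ NFs, and raised 3 and lowered 4 in CD26- NFs. The difference passed in 12 (44.4%, against 4.53% of all genes), each of them positive, and the median difference was 0.372, against 0.00627 over all genes. By line the median ran from 0.248 to 0.46, and leaving out any single library left 8 to 15 of the 27. The block gave 16. The κB motif, the site that NF-kB dimers bind, was searched in the promoters, from 250 bases before to 50 bases after the start, of the genes that have 1 in the RefSeq table of GRCm38.p6. It was present in 7 of the 9 genes past the threshold that had a promoter (77.8%), in 11 of 23 of the whole list (47.8%), in 18.6% of the genes that rose in CD26+ NFs alone, in 9.68% of those that fell there, and in 12.6% of all 10670 promoters. The list was drawn up with earlier results of these data known and holds inhibitors that NF-kB itself drives. Its shares are therefore a description and no separate support. A match of letters is not a bound site. The windows below are read 5′ to 3′ on the gene's strand, with the κB letters in capitals, and are shown because 4 belong to NF-kB genes that passed and 2 to chemokines that CM raised in both populations, at chr17:45555584-45555613 (Nfkbie, plus strand), chr10:19015516-19015545 (Tnfaip3, minus strand), chr11:54962979-54963008 (Tnip1, minus strand), chr19:46304688-46304717 (Nfkb2, plus strand), chr5:90891164-90891193 (Cxcl1, plus strand) and chr5:90786018-90786047 (Cxcl3, plus strand).
Nfkbie: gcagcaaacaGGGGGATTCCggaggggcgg
Tnfaip3: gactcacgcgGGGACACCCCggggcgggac
Tnip1: ctccatcatgGGGGAATTCCcctcctgcct
Nfkb2: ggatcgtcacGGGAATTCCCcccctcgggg
Cxcl1: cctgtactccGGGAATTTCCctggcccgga
Cxcl3: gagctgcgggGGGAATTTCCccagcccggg

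Among the subunits, the precursor genes and Relb moved and the others did not pass. Nfkb1, which encodes the precursor of p50, stood at 134, 138 and 132 CPM in CD26- control, 150, 152 and 164 (lowest, median, highest) in CD26- CM, 115, 119 and 120 in CD26+ control and 219, 239 and 274 in CD26+ CM cultures. Control and CM cultures did not overlap in either population, and the rise was 0.20 ± 0.07 (adjusted p = 0.049) in CD26- and 1.05 ± 0.07 (adjusted p = 3.4e-08) in CD26+ NFs. Relb, the partner of p52 in the non-canonical pathway, had 23.5, 24.3 and 19.7 CPM in CD26- control and 24.4, 27.4 and 29.9 in CD26- CM, against 19.3, 15.0 and 17.4 in CD26+ control and 31.8, 39.3 and 46.2 in CD26+ CM cultures. Its lowest CD26+ CM library lay above every other culture, and the difference was 0.89 ± 0.15 (adjusted p = 0.004). Nfkb2, the p52 precursor, rose by 0.68 ± 0.07 in CD26+ NFs (adjusted p = 4.7e-06), where the effect in CD26- NFs was 0.16 ± 0.07 (adjusted p = 0.15) and the difference 0.52 ± 0.10 (adjusted p = 0.0064). Rela and Rel, which carry transactivation domains, gave differences of 0.24 ± 0.10 (adjusted p = 0.14) and 0.23 ± 0.13 (adjusted p = 0.28), and their control and CM libraries overlapped in both populations.

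Of the inhibitors 5 of 11 passed and of the kinases and adaptors 4 of 11. Nfkbie, the gene of IkB epsilon, was at 19.0, 22 and 16.4 CPM in CD26- control and 15.0, 18.4 and 21.8 in CD26- CM cultures, which overlapped, and went from 12.4, 10.2 and 9.57 to 18.0, 23.6 and 32.4 CPM in CD26+ NFs, which did not. The effect in CD26- NFs was -0.06 ± 0.16, that in CD26+ NFs 1.2 ± 0.17, and the difference 1.26 ± 0.23 (adjusted p = 0.0054). Nfkbia, the gene of IkB alpha, had means of 39.5 ± 4.36 (SD, n = 3) and 53.4 ± 3.33 (SD, n = 6) CPM in CD26- and of 21.1 ± 1.37 (SD, n = 3) and 70.3 ± 20.1 (SD, n = 6) in CD26+ control and CM cultures, with a difference of 1.30 ± 0.28 (adjusted p = 0.011). For Tnfaip3 (A20, a deubiquitinase that ends the signal) the difference was 1.41 ± 0.38 (adjusted p = 0.032), for its partner Tnip1 0.76 ± 0.17 (adjusted p = 0.014) and for Birc3, a ubiquitin ligase, 1.02 ± 0.20 (adjusted p = 0.0061). Traf3, which keeps the non-canonical pathway off, was at 101, 97.3 and 102 CPM in CD26- control and 89.3, 93.7 and 99.0 in CD26- CM, and rose from 79.6, 76.2 and 80.2 to 91.2, 107 and 120 in CD26+ NFs (difference 0.53 ± 0.09; adjusted p = 0.004). The remaining members past the threshold were Cyld, Traf6 and Ikbkb, with differences of 0.38, 0.37 and 0.23. Not every target followed: Nfkbiz, an atypical IkB induced by the pathway, rose in both populations, by 0.93 ± 0.13 and 1.12 ± 0.13, with a difference of 0.19 ± 0.18 (adjusted p = 0.56).

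**Figure D3:**
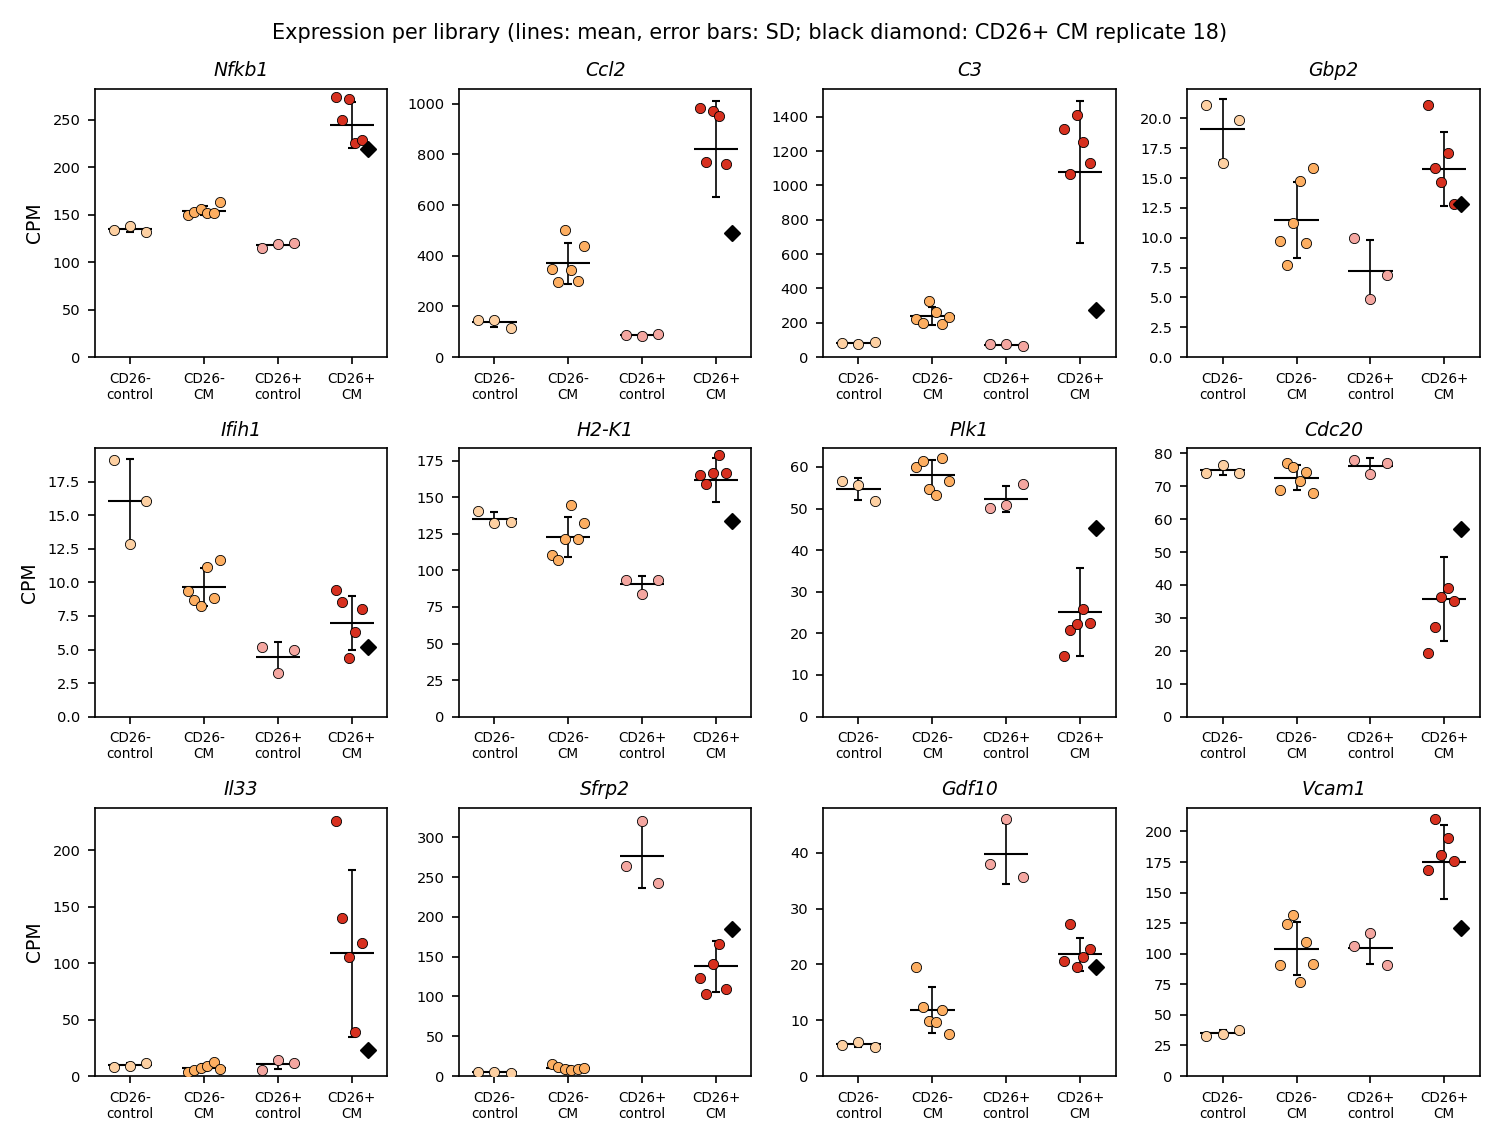
Expression in CPM (y axis, from 0) of 12 genes in every library of the 4 groups (x axis), with the mean (line), the SD (error bar) and CD26+ CM replicate 18 as a black diamond. Nfkb1 lay at 219 to 274 CPM in CD26+ CM cultures against 150 to 164 in CD26- CM cultures, and Gbp2 fell in CD26- but rose in CD26+ NFs.

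Several chemokines rose in both populations, and more in CD26+ NFs. Of 30 listed ligands 19 were tested, CM raised 8 and lowered 2 in CD26- NFs and raised 10 and lowered 2 in CD26+ NFs, and the difference passed in 6 (31.6%, against 4.53% of all genes in that direction), all positive, with a median of 0.74. Ccl2, which attracts monocytes, was at 147, 148 and 116 CPM in CD26- control and 295, 344 and 501 in CD26- CM, and at 85.4, 81.3 and 89.7 in CD26+ control and 490, 860 and 984 in CD26+ CM cultures. It rose in both populations with no overlap, by 1.43 ± 0.20 and 3.26 ± 0.23, and the difference was 1.83 ± 0.28 (adjusted p = 0.0027). Ccl7 rose by 1.13 ± 0.16 and 1.91 ± 0.17, and its difference of 0.79 ± 0.22 (adjusted p = 0.037) passed in 16 of 32 alternatives, which leave aside a stricter test against a minimum log2 difference of 0.5. The neutrophil attractants Cxcl1 and Cxcl3, whose promoter windows are printed above, rose by 2.25 ± 0.29 and 2.36 ± 0.40 in CD26- NFs and by 3.68 ± 0.32 and 5.34 ± 0.59 in CD26+ NFs, where Cxcl3 had been under 1 CPM in every control culture. Their differences were 1.43 ± 0.41 (adjusted p = 0.041) and 2.98 ± 0.79 (adjusted p = 0.028). Cxcl16, which is made as a membrane protein, behaved otherwise, with 61.9, 56.6 and 58.4 CPM in CD26- control, 50.0, 58.6 and 76.4 in CD26- CM, 16.8, 12.2 and 15.4 in CD26+ control and 24.8, 36.6 and 42.3 in CD26+ CM cultures. It rose in CD26+ NFs alone and stayed below the CD26- cultures (difference 1.25 ± 0.21; adjusted p = 0.004).
For Cxcl12, the ligand of Cxcr4, the difference was 1.63 ± 0.48 (adjusted p = 0.048), and it passed in 12 of 32 alternatives. Ccl8, Cxcl2, Cxcl5 and Ccl11 rose in both populations, and their differences of 0.63 ± 0.63, 2.08 ± 0.84, 0.81 ± 0.40 and 0.46 ± 0.35 did not pass. The count of 6 fell to 2 without any 1 of the 6 control libraries, to 3 without CM replicate 4, 5, 8, 13, 15 or 16, and to 4 with the epithelial covariate, and under the line block 6 ligands were higher and 1 lower. In replicate 18 Ccl2, Cxcl3 and Ccl8 were the lowest of the CD26+ CM cultures, and the median difference of the list for its line was 0.0782, against 0.653 to 1.06 in the other lines.

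Among cytokines and receptors, Il33, Lif and Tlr2 rose in CD26+ NFs alone, and C3 rose in both populations. Il33, an alarmin cytokine, was at 8.13, 8.63 and 11.5 CPM in CD26- control and 3.92, 6.79 and 12.4 in CD26- CM cultures, and went from 5.75, 14.7 and 11.7 to 23, 112 and 226 CPM in CD26+ NFs. The CD26+ CM cultures did not overlap their controls but spread widely among lines, and the difference was 3.71 ± 0.83 (adjusted p = 0.014). Lif, of the interleukin 6 family, rose by 1.52 ± 0.17 in CD26+ NFs, where the effect in CD26- NFs, which had more of it in control medium, was 0.36 ± 0.16 (adjusted p = 0.13). C3, the central complement component, rose from 79.6, 78.6 and 85.5 to 192, 228 and 328 CPM in CD26- and from 76.1, 76.0 and 64.8 to 273, 1191 and 1409 CPM in CD26+ NFs. Both populations began at a like level, the difference was 2.34 ± 0.46 (adjusted p = 0.0067), and the lowest CD26+ CM value was that of replicate 18. Of 18 complement genes tested C3 was the only one past the threshold (5.56%, against 4.53% of all genes in that direction), and under the line block 2 passed. Receptors with a positive difference were Ifngr2 (0.68 ± 0.12; adjusted p = 0.0046) and Ifngr1 (0.34 ± 0.09; adjusted p = 0.032), which form the interferon gamma receptor, Il6ra (0.82 ± 0.19; adjusted p = 0.015) and, from the list of lipopolysaccharide sensing and acute-phase genes, Tlr2 (1.29 ± 0.24; adjusted p = 0.0058). Il6ra was at 7.94 to 8.66 CPM in CD26- control and 9.62 to 11.7 in CD26- CM cultures, with no overlap and an effect of 0.38 ± 0.13 (adjusted p = 0.062) against 1.2 ± 0.14 in CD26+ NFs. Receptors with a negative difference were Tnfrsf1a (-0.35 ± 0.09; adjusted p = 0.021) and Il4ra (-0.49 ± 0.14; adjusted p = 0.043), which fell in CD26+ NFs alone. Of 45 interleukins, colony-stimulating factors and receptors tested, 5 were higher and 4 lower, against 4.53% and 3.01% of all genes. The 5 became 2 without CD26- control replicate 3, 10 without replicate 18 and 12 under the line block, and the 4 fell to 0, 1 or 2 without any 1 of the control libraries or of CM replicates 4, 6 and 9 and rose to 6 without replicate 18, 7 with voom weights and 8 under the line block.

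Some interferon-stimulated genes fell in CD26- NFs and some rose in CD26+ NFs. Of 39 listed genes 34 were tested, and 20 of them had a group mean of at least 5 CPM. CM lowered 11 and raised 1 in CD26- NFs, and raised 9 and lowered 1 in CD26+ NFs. The difference passed in 11 (32.4%, against 4.53% of all genes), each positive, and the fitted effects had opposite signs in 31 of 34. The share of opposite signs over all 14273 genes was not counted. Over those genes the Spearman correlation of both CM effects was 0.394. The median effect of the listed genes was -0.574 in CD26- and 0.374 in CD26+ NFs, with a median difference of 1.12, or of 0.637 among the 20 more abundant genes. Gbp2, a guanylate-binding protein, was at 21.1, 16.2 and 19.9 CPM in CD26- control and 7.72, 10.4 and 15.8 in CD26- CM, against 9.96, 4.89 and 6.90 in CD26+ control and 12.9, 15.3 and 21.1 in CD26+ CM cultures. No CM library overlapped its controls, and Gbp2 fell by 0.74 ± 0.22 in CD26- NFs (adjusted p = 0.029), rose by 1.13 ± 0.24 in CD26+ NFs (adjusted p = 0.0021) and differed by 1.87 ± 0.32 (adjusted p = 0.0043). Ifih1, the RNA sensor MDA5, went from 19.2, 12.9 and 16.1 to 8.27, 9.11 and 11.7 CPM in CD26- and from 5.18, 3.26 and 4.97 to 4.39, 7.16 and 9.48 CPM in CD26+ NFs. Only the CD26- groups were apart, and the difference was 1.38 ± 0.30 (adjusted p = 0.012). Parp14, an ADP-ribosyltransferase, fell by 0.51 ± 0.15 and rose by 0.55 ± 0.16 (difference 1.07 ± 0.22; adjusted p = 0.008). Ddx58, the RNA sensor RIG-I, fell in CD26- NFs alone, from 77.2, 57.5 and 65.2 to 44.0, 47.6 and 49.9 CPM, close to the level of CD26+ NFs in either medium (41.6 to 47.2 CPM), and the difference was 0.55 ± 0.10 (adjusted p = 0.0057). The other members past the threshold were Ifi35, Gbp3, Isg15, Irgm1, Oas1b, Ifit3 and Gbp7, with differences of 0.63, 1.74, 1.99, 0.88, 2.25, 4.07 and 1.12. Of these Oas1b and Ifit3 were under 2 CPM in every group mean. Irf1, a transcription factor of the interferon response, gave 0.64 ± 0.20 (adjusted p = 0.056).

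The count of 11 interferon-stimulated genes varied with single libraries. It was 3 when CD26+ control replicate 11 was left out, 5 and 6 for CD26- control replicates 3 and 1, 7 without CD26+ CM replicate 13, 14 or 16, 17 without replicate 18 and 18 without CD26- CM replicate 9. By line, the median difference was 0.237 for 13-MCB-138 and 0.954 to 1.37 for the other 5. Summed epithelial markers were 5431 to 6135 CPM in CD26- control and 3578 to 5827 CPM in CD26- CM cultures, the cultures where these genes fell, and with the epithelial level as a covariate 10 of the 34 passed. The interferon-stimulated response element, spelled GAAANNGAAA on either strand, was found in the promoters of 15 of 26 listed genes (57.7%), of 9 of 95 genes that fell in CD26- NFs alone (9.47%) and of 3.62% of all 10670. The share was 4.42% for genes up in CD26+ NFs alone, 4.26% for opposite signs and 0% for genes up in CD26- NFs alone. The element was chosen for the search after the values were known. Windows from genes that passed show it in capitals 5′ to 3′ on the gene's strand, at chr3:142620594-142620623 (Gbp2, plus strand), chr3:142530273-142530302 (Gbp7, plus strand) and chr4:156200865-156200894 (Isg15, minus strand).
Gbp2: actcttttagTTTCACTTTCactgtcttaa
Gbp7: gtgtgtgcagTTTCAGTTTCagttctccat
Isg15: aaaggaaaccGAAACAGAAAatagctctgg

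Class I antigen presentation, which displays peptides to cytotoxic T cells, differed in its heavy and light chains. All 22 listed genes were tested, 6 passed (27.3%, against 4.53% of all genes), all positive, and 5 of these were among the 9 heavy and light chains. H2-K1 was at 140, 132 and 133 CPM in CD26- control and 107, 121 and 145 in CD26- CM, and rose from 93.6, 84.2 and 93.6 to 134, 166 and 179 CPM in CD26+ NFs, where the CM range overlapped that of CD26- NFs in CM (difference 0.98 ± 0.13; adjusted p = 0.0011). H2-D1 rose from 212, 194 and 204 to 246, 299 and 314 CPM and B2m from 230, 227 and 231 to 257, 305 and 328 CPM in CD26+ NFs, while their effects in CD26- NFs were 0.02 ± 0.07 and -0.01 ± 0.06. H2-T22 rose in both, by 1.56 ± 0.19 and 2.54 ± 0.20. Psme2, a proteasome activator subunit induced by interferon gamma, in CD26- NFs alone fell by 0.33 ± 0.07 (difference 0.46 ± 0.10; adjusted p = 0.012). None of the 8 loading genes passed, and the peptide transporter genes Tap1 and Tap2 gave -0.07 ± 0.17 and 0.08 ± 0.13. H2 genes share long near-identical stretches and reads from FVB/n mice were aligned to another strain's genome, so counts of single H2 genes are uncertain. The count was 3 without CD26- control replicate 3 or CD26+ control replicate 11 and 10 without CD26- CM replicate 7. The line as a block gave 9.

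Cell division genes fell in CD26+ NFs, with a median difference by line below 0 in 5 lines and near 0 in 13-MCB-138. Of 44 listed mitotic genes 43 were tested. By edgeR, CM lowered 42 of them in CD26+ NFs and changed 0 in CD26- NFs (median effect 0.0255), and the difference passed in 10 (23.3%, against 3.01% of all genes), each negative, with a median of -0.93. Cdc20, an activator of the anaphase-promoting complex, was at 74, 76.6 and 74 CPM in CD26- control, 67.9, 73.0 and 77.2 in CD26- CM, 78.0, 73.6 and 77.0 in CD26+ control and 19.3, 35.8 and 57.1 in CD26+ CM cultures. All 12 control and CD26- CM libraries lay above all CD26+ CM libraries, and the difference was -1.06 ± 0.27 (adjusted p = 0.026). Plk1, a kinase of mitotic entry, fell from 50.2, 50.9 and 55.9 to 14.6, 22.3 and 45.4 CPM in CD26+ NFs and stayed at 53.2 to 62.1 in CD26- CM cultures (difference -1.14 ± 0.29; adjusted p = 0.025). Spc24 of the kinetochore gave -1.53 ± 0.35 (adjusted p = 0.014), and Cdca8 of the chromosomal passenger complex -0.96 ± 0.27 (adjusted p = 0.036). Ccnb1, Ccnb2, Bub1b, Sgo1, Incenp and Birc5 passed with values of -0.84 to -1.09. Mki67, the usual marker of cycling cells, gave -0.84 ± 0.35 (adjusted p = 0.14), and Top2a fell by 1.09 ± 0.25 in CD26+ NFs with a difference of -1.07 ± 0.37 (adjusted p = 0.083).

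DNA replication genes followed the same order with smaller changes. All 46 were tested, CM lowered 28 in CD26+ NFs and raised 1 in CD26- NFs, and the difference passed in 4 (8.7%, against 3.01% of all genes in that direction), each negative, with a median of -0.72 and a negative value in all 46. Pold1, the catalytic subunit of DNA polymerase delta, went from 20.5, 18.9 and 16.4 to 22.4, 23.5 and 24.6 CPM in CD26- and from 36.5, 33.6 and 32.9 to 15.3, 21.8 and 32.6 CPM in CD26+ NFs. The groups did not overlap in either population, and the difference was -0.96 ± 0.21 (adjusted p = 0.014). Pold2, its partner, gave -0.77 ± 0.16 (adjusted p = 0.01), the licensing factor Cdt1 -0.83 ± 0.20 (adjusted p = 0.019) and Gins4 of the helicase -0.75 ± 0.19 (adjusted p = 0.023). Cdt1 rose in CD26- NFs by 0.48 ± 0.15 (adjusted p = 0.035) and did not pass in CD26+ NFs, where its effect was -0.35 ± 0.14 (adjusted p = 0.065).

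Replicate 18 had the highest CD26+ CM value of Cdc20, Plk1, Spc24, Cdca8, Pold1, Pold2, Cdt1 and Gins4. The median difference of the mitotic list for line 13-MCB-138 was 0.0328, against -0.772 to -1.77 for the other 5, and that of the replication list 0.12 against -0.556 to -1.38. Without replicate 18, 43 of 43 mitotic and 40 of 46 replication genes passed. Blocked on the line, 39 and 27 passed, with DESeq2 24 and 12. The 10 mitotic genes became 1 or 2 without any 1 of the 6 control libraries, 3 or 4 without CM replicate 4, 5, 6, 8, 14, 15, 16 or 17, and 5 with the epithelial covariate, and the 4 replication genes became 2 without CD26- control replicate 3. TTTGAA, the core of the cell cycle homology region to which the DREAM complex binds, was present on either strand in 26 of 36 mitotic promoters (72.2%), 5 of 37 replication promoters (13.5%), 18.9% of promoters of genes that fell in CD26+ NFs alone and 14.3% of all. It too was chosen after the values were known. The windows of Cdc20 at chr4:118437344-118437373 and Ccnb2 at chr9:70421704-70421733, both on the minus strand, show it in capitals. A further Ccnb2 match nearer the start, at chr9:70421533-70421562, is not printed.
Cdc20: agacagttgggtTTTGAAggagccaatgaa
Ccnb2: cagggactagaaTTTGAAaataagactgta

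**Figure D4:**
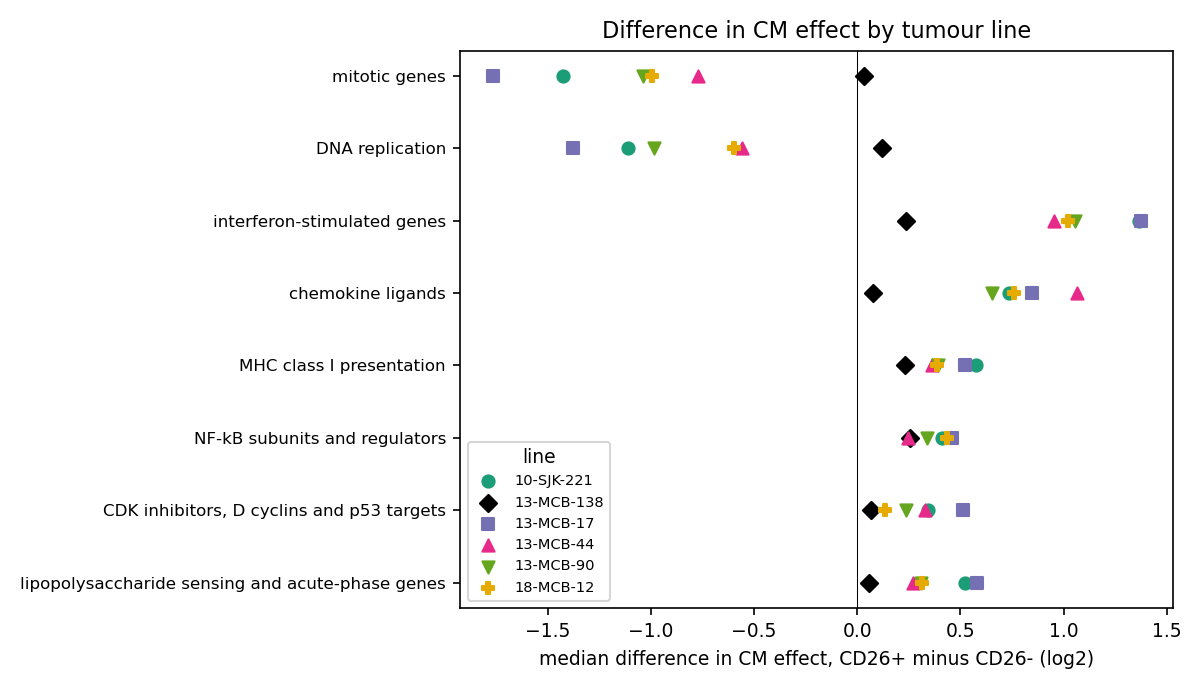
Median difference in CM effect (CD26+ minus CD26-, log2, x axis) of 8 gene lists (y axis) for each of the 6 tumour lines (symbols), which share the control libraries. For 13-MCB-138 the mitotic and replication medians were 0.0328 and 0.12, and its interferon and chemokine medians of 0.237 and 0.0782 were the lowest of the 6 lines.

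Some inhibitors of the cell cycle and p53 targets had a more positive CM effect in CD26+ NFs. In the list of these genes with the D cyclins, CM raised 8 and lowered 4 in CD26+ NFs and raised 2 and lowered 3 in CD26- NFs. Cdkn1a, the CDK inhibitor p21, was at 357, 342 and 319 CPM in CD26- control and 334, 364 and 377 in CD26- CM cultures and rose from 154, 132 and 149 to 196, 272 and 356 CPM in CD26+ NFs, where 5 of the 6 CM libraries stayed below every CD26- library (difference 0.79 ± 0.17; adjusted p = 0.012). Btg2, an antiproliferative p53 target, rose by 0.67 ± 0.12 in CD26+ NFs with a difference of 0.92 ± 0.16 (adjusted p = 0.004), Eda2r gave 0.76 ± 0.16 (adjusted p = 0.01) and Mdm2, the ligase that degrades p53, 0.47 ± 0.11 (adjusted p = 0.018). Gadd45a, a stress-induced p53 target, in CD26- NFs alone fell by 0.59 ± 0.17 (adjusted p = 0.026). Trp53 itself gave 0.07 ± 0.08 (adjusted p = 0.64). Cdkn2c, an inhibitor of CDK4 and CDK6, went the other way with -0.72 ± 0.21 (adjusted p = 0.044). Of 29 genes tested 5 were higher and 1 lower, against 4.53% and 3.01% of all genes. Leaving out CD26+ control replicate 11 left 1 of the 5, leaving out CD26- control replicate 2 or 3 left 3, leaving out replicate 18 gave 8, and the line block gave 10. The 1 lower gene became 5 without replicate 18, with voom weights and under the line block, 2 without replicate 2, 9 or 13, and 0 without any 1 of 11 other libraries.

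The genes with the smallest p among those that rose in CD26+ NFs alone were Kazn, Gnai1, Pak3 and H2-K1. Pak3, a p21-activated kinase that acts on the cytoskeleton, was at 35.4, 32.5 and 35.3 CPM in CD26- control, 27.3, 30.8 and 36 in CD26- CM, 18.7, 14.5 and 18.3 in CD26+ control and 30.5, 33.0 and 36.5 in CD26+ CM cultures (difference 1.10 ± 0.13; adjusted p = 0.00056). Kazn, whose product binds desmosomal proteins, went from 12.5, 9.93 and 11.6 to 25.9, 31.8 and 36.9 CPM in CD26+ NFs and stayed at 15.9 to 23.4 in CD26- CM cultures. Gnai1, an inhibitory G protein subunit, went from 16.9, 17.9 and 18.5 to 34.8, 40.8 and 43.7 CPM in CD26+ NFs, the range of CD26- NFs in either medium (27.2 to 41.8 CPM) or just above. Cgnl1, a tight junction protein, rose by 1.42 ± 0.13 (difference 1.26 ± 0.17; adjusted p = 0.0015) and was the 1 gene past the threshold among 31 claudin, junction and desmosome genes (3.23%, against 4.53% of all genes in that direction). In that list 2 were higher under DESeq2, with voom weights, under the line block and without replicate 7 or 18, and 3 with the epithelial covariate, and 1 was lower with voom weights, under the line block and without replicate 18. Kazn, Gnai1, Pak3, H2-K1 and Cgnl1 passed under all 32 alternatives.

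Some hypoxia targets rose more in CD26+ NFs, and the glycolytic genes that differed did so in both directions. Of 37 glycolysis and hypoxia genes, CM raised 19 in CD26- and 21 in CD26+ NFs and lowered 2 in each, and the difference passed in 7 upward and 1 downward, against 4.53% and 3.01% of all genes. Among the 14 hypoxia genes 5 passed (35.7%, against 7.53% of all genes either way), all positive, with a median of 0.825. Among the 23 glycolysis genes 3 passed (13%), 2 higher and 1 lower, with a median of -0.124. Vegfa, the angiogenic growth factor, was at 373, 348 and 336 CPM in CD26- control and 427, 445 and 484 in CD26- CM, and rose from 236, 216 and 237 to 396, 624 and 672 CPM in CD26+ NFs (difference 0.96 ± 0.19; adjusted p = 0.0066). Ndrg1 gave 1.79 ± 0.45 (adjusted p = 0.023), the demethylase Kdm3a 0.51 ± 0.10 (adjusted p = 0.009) and the prolyl hydroxylase Egln3, which rose in both, 1.33 ± 0.37 (adjusted p = 0.037). Mxi1, a repressor that opposes Myc, fell by 0.34 ± 0.11 in CD26- and rose by 0.54 ± 0.12 in CD26+ NFs (difference 0.88 ± 0.16; adjusted p = 0.0052). Slc2a1, the glucose transporter, gave 0.85 ± 0.23 (adjusted p = 0.033) and the brain aldolase Aldoc 1.55 ± 0.34 (adjusted p = 0.013), whereas the lactate transporter Slc16a1 rose in CD26- NFs alone (difference -0.38 ± 0.09; adjusted p = 0.015). Hif1a rose in CD26- NFs by 0.38 ± 0.08 (adjusted p = 0.0046), with a difference of -0.27 ± 0.11 (adjusted p = 0.13). The 7 became 3 without CD26+ control replicate 11, 4 without replicate 2, 3, 10 or 12, and 11 without replicate 18.

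The antioxidant genes past the threshold all had a positive difference in CM effect. Sod2, the mitochondrial superoxide dismutase and an NF-kB target, rose from 44.4, 48.1 and 46.5 to 86.6, 93.5 and 128 CPM in CD26- and from 50.8, 56.4 and 54.4 to 188, 303 and 337 CPM in CD26+ NFs (difference 1.29 ± 0.22; adjusted p = 0.004). Srxn1, which repairs peroxiredoxins, rose in CD26+ NFs alone (difference 0.58 ± 0.10; adjusted p = 0.004), and Gclc, of glutathione synthesis, in CD26- NFs alone fell by 0.46 ± 0.08 (difference 0.50 ± 0.11; adjusted p = 0.015). Prdx6, Prdx1 and Gsr passed with differences of 0.43, 0.37 and 0.53, which made 6 of 26 genes (23.1%, against 4.53% of all genes), all positive. With voom weights 1 gene was lower and under the line block 2. Hmox1, the heme oxygenase, rose by 0.86 ± 0.14 and 0.95 ± 0.14 (difference 0.08 ± 0.19; adjusted p = 0.83). The 6 became 2 without CD26+ control replicate 11 and 3 without replicate 1, 3, 10 or 12. Ptgs2, the inducible cyclooxygenase, was at 2405, 2519 and 2376 CPM in CD26- control and 1768, 2675 and 2813 in CD26- CM, and rose from 566, 400 and 520 to 669, 880 and 1104 CPM in CD26+ NFs, where it remained below every CD26- culture (difference 0.81 ± 0.21; adjusted p = 0.028). The prostaglandin transporter Slco2a1 gave 0.91 ± 0.23 (adjusted p = 0.023). Ptgfr, the receptor of prostaglandin F, rose in CD26- NFs alone, from 2.81, 2.90 and 2.71 to 4.42, 5.99 and 8.49 CPM, and stayed far below the 23.5 to 36.2 CPM of CD26+ NFs (difference -1.24 ± 0.26; adjusted p = 0.01). Of 17 genes tested 3 were higher and 1 lower, against 4.53% and 3.01% of all genes, and the 3 became 0 when replicate 2 or 3 of the CD26- controls or 11 or 12 of the CD26+ controls was left out and 8 under the line block.

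Growth factors past the threshold included ligands of the EGF family. Ereg, the EGF receptor ligand epiregulin, rose by 0.75 ± 0.20 in CD26- and 2.07 ± 0.22 in CD26+ NFs (difference 1.31 ± 0.29; adjusted p = 0.012). Nrg1, a ligand of ERBB receptors, rose from 27.6, 31.4 and 28.6 to 48.9, 65.7 and 75.3 CPM and from 23.7, 21.8 and 26.4 to 70.9, 105 and 121 CPM (difference 0.97 ± 0.22; adjusted p = 0.014). Gdnf gave 1.70 ± 0.38 (adjusted p = 0.014), with low levels of 1.26 to 2.00 CPM in CD26+ control cultures, and Pdgfa 0.74 ± 0.21 (adjusted p = 0.043). No fibroblast growth factor, hepatocyte growth factor or insulin-like growth factor gene of the list passed. In all, 5 of 46 genes were higher, against 4.53% of all genes, and none was lower. The 5 became 2 when CD26+ control replicate 11 was left out, 3 for replicate 12 and 9 for replicate 18, and 11 under the line block, and 2 genes were lower without replicate 18, 3 with voom weights and 5 under the line block.

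Of the inhibitors of matrix proteolysis 4 of 7 passed, all positive. Serpinb2 rose in both populations with a difference of 2.61 ± 0.67 (adjusted p = 0.025), and Timp1 and Timp2, inhibitors of metalloproteinases, gave 0.56 ± 0.15 (adjusted p = 0.033) and 0.25 ± 0.06 (adjusted p = 0.023). Mmp2, gelatinase A, rose in CD26- NFs alone, from 333, 318 and 319 to 414, 463 and 515 CPM, below the 956 to 1443 CPM of CD26+ NFs (difference -0.69 ± 0.13; adjusted p = 0.0064). Mmp12, macrophage elastase, fell by 0.60 ± 0.20 in CD26- and rose by 0.70 ± 0.24 in CD26+ NFs. Of 51 proteases and inhibitors 8 were higher and 3 lower, against 4.53% and 3.01% of all genes. The 8 became 2 without CD26+ control replicate 11, 3 to 5 without any other single control library, 15 without replicate 18 and 18 under the line block, and the 3 became 1 without CD26- control replicate 3 or CD26+ control replicate 11 and 5 without replicate 18 or under the line block. Thbs1, thrombospondin, rose from 4504, 4297 and 4479 to 8252, 11280 and 14014 CPM in CD26+ NFs, where the effect in CD26- NFs was 0.23 ± 0.14 (difference 1.12 ± 0.20; adjusted p = 0.0043). Cemip, which degrades hyaluronan, rose in both, by 1.27 ± 0.28 and 2.84 ± 0.31. Of the integrins, Itgav rose in CD26+ NFs alone (difference 0.57 ± 0.11; adjusted p = 0.006) and its partner Itgb8 fell in CD26- NFs alone, from 7.07, 7.94 and 9.75 to 2.32, 2.87 and 5.31 CPM (difference 1.26 ± 0.27; adjusted p = 0.011).

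Genes that fell in CD26+ NFs alone included matrix proteins. Fbn2, an elastic fibre fibrillin, fell from 125, 168 and 143 to 28.1, 37.5 and 72.6 CPM in CD26+ NFs and was at 10.1 to 16.5 CPM in all 9 CD26- cultures (difference -1.69 ± 0.35; adjusted p = 0.0096). Vcan, the proteoglycan versican, fell from 2271, 2629 and 2517 to 1035, 1181 and 1719 CPM, against 707, 834 and 824 and then 526, 725 and 844 CPM in CD26- NFs (difference -0.82 ± 0.20; adjusted p = 0.02). Has1, a hyaluronan synthase, and the fat cell regulator Rxra gave -1.09 ± 0.32 (adjusted p = 0.048) and -0.51 ± 0.10 (adjusted p = 0.006). Has1 passed in 15 of 32 alternatives and missed the threshold with the epithelial covariate (adjusted p = 0.056), whereas Rxra passed in all 32. The 4 genes with the smallest p were Steap3, Ppp3ca, Golga7 and Klhl13. Steap3, an endosomal ferrireductase, fell from 238, 258 and 214 to 106, 124 and 141 CPM, with CD26- cultures at 32.6 to 45.0. Ppp3ca, the catalytic subunit of calcineurin, fell by 0.58 ± 0.07 in CD26+ NFs, whereas CD26- NFs had 73.7 to 76.7 CPM in control and 79.3 to 89.7 in CM cultures, with no overlap and an effect of 0.16 ± 0.07 (adjusted p = 0.16). Klhl13, an adaptor of a ubiquitin ligase that acts on Aurora kinase B, went from 17.2, 20.9 and 19.1 to 5.46, 6.92 and 10.4 CPM, against 11.3 to 15.8 in CD26- cultures (difference -1.30 ± 0.20; adjusted p = 0.0027). Golga7, needed for palmitoylation of Ras, fell from 89.5, 87.9 and 84.4 to 57.0, 61 and 63.2 CPM (difference -0.42 ± 0.06; adjusted p = 0.0027). In CD26- NFs its effect was -0.12 ± 0.04 (adjusted p = 0.088), and the libraries did not overlap there. The amino acid stress genes Mthfd2 and Trib3 gave -0.48 ± 0.12 (adjusted p = 0.021) and -0.69 ± 0.20 (adjusted p = 0.049), and Trib3 passed in 12 of 32 alternatives. Nupr1, a stress-induced nuclear protein of the same list, fell in CD26- NFs alone and had a positive difference (0.96 ± 0.24; adjusted p = 0.022). Of 47 proteoglycans and matricellular glycoproteins 3 were higher and 4 lower, against 4.53% and 3.01% of all genes, and the 4 became 1 or 2 without replicate 1, 3, 10 or 11, 7 without replicate 18 and 12 under the line block, while the 3 became 1 without replicate 2, 10 or 11 and 6 without replicate 18.

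Among genes that both populations moved alike, 65 passed for the difference, and 62 of these had the larger change in CD26+ NFs, against 592 of all 934 that changed in the same direction. Plxna4 and Plxna2, receptors for semaphorins, fell from 7.16, 9.99 and 9.34 to 3.38, 4.11 and 4.58 CPM and from 19.9, 23.7 and 21.9 to 13.0, 14.9 and 18.6 CPM in CD26- NFs. In CD26+ NFs they fell from 66.5, 89.3 and 72.5 to 8.01, 12.1 and 15.5 CPM and from 46.3, 47.3 and 45.0 to 16.1, 17.9 and 21.0 CPM, to about the CD26- control level. Their differences were -1.58 ± 0.25 (adjusted p = 0.0028) and -0.81 ± 0.15 (adjusted p = 0.0046). Srgap3, which acts downstream of Slit and Robo, rose by 1.38 ± 0.16 and 2.63 ± 0.17 (difference 1.25 ± 0.22; adjusted p = 0.0043), and Rab32, a GTPase of organelle traffic, by 0.73 ± 0.14 and 1.96 ± 0.15 (difference 1.23 ± 0.20; adjusted p = 0.0028). Pdpn, podoplanin, a fibroblast surface marker, rose by 1.30 ± 0.32 and 2.84 ± 0.35, a difference that passed in 16 of 32 alternatives. The 3 genes with the larger rise in CD26- NFs were Il1r2, a decoy receptor for interleukin 1, Rnf144a, a ubiquitin ligase, and Vcam1, an adhesion molecule for leukocytes. Vcam1 rose from 32.6, 34.8 and 37.4 to 77.2, 101 and 132 CPM in CD26- and from 106, 117 and 91.1 to 121, 178 and 210 CPM in CD26+ NFs, so that CD26- cultures in CM stood near CD26+ cultures in control medium (difference -0.83 ± 0.23; adjusted p = 0.038). It passed in 18 of 32 alternatives, whereas Il1r2 (-1.16 ± 0.26; adjusted p = 0.013) passed in 31 and Rnf144a (-0.80 ± 0.21; adjusted p = 0.026) in 28.

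Responses of CD26- NFs alone were fewer. The genes with the smallest p that rose there were Flot1, Pcbp4, Ppan and Nsg1. Flot1, a scaffold of membrane microdomains, went from 16.9, 16.5 and 15.8 to 24.1, 26.2 and 30.3 CPM and stayed below the 35.2 to 43.9 CPM of all CD26+ cultures (difference -0.60 ± 0.10; adjusted p = 0.004). Nsg1, an endosomal protein, went from 16.2, 15.5 and 16.6 to 23, 29.1 and 38.9 CPM (difference -0.94 ± 0.18; adjusted p = 0.006). Ppan, of ribosome assembly, and Pcbp4, which binds RNA, gave -0.54 ± 0.10 (adjusted p = 0.0054) and -0.68 ± 0.12 (adjusted p = 0.0043). Cebpd, a C/EBP transcription factor, rose from 5.71, 4.61 and 3.38 to 10.4, 12.1 and 15.4 CPM, Gas1, a surface protein that binds Hedgehog ligands, from 18.6, 17.3 and 15.6 to 24.6, 32.7 and 39.7 CPM, and Tgfbr3, the co-receptor betaglycan, from 84.8, 87.5 and 82.2 to 107, 151 and 180 CPM. All 3 were lower in CD26- than in CD26+ cultures in either medium, and their differences were -1.33 ± 0.27 (adjusted p = 0.0085), -0.73 ± 0.19 (adjusted p = 0.026) and -0.72 ± 0.16 (adjusted p = 0.015).

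Genes that fell in CD26- NFs alone were led by Ypel5, Dennd11, Zbtb38 and Bcr. Zbtb38, which binds methylated DNA, went from 183, 192 and 194 to 141, 147 and 165 CPM, a level near that of CD26+ cultures (135 to 157 CPM), with a difference of 0.42 ± 0.08 (adjusted p = 0.0054). Bcr went from 114, 110 and 101 to 69.4, 79.8 and 88.9 CPM (difference 0.56 ± 0.10; adjusted p = 0.0057). Scube3, a secreted protein with EGF domains, fell from 15.9, 8.54 and 12.4 to 0.961, 1.65 and 5.10 CPM (difference 2.25 ± 0.54; adjusted p = 0.019). Rgs5, a pericyte marker, fell from 4.26, 4.87 and 5.69 to 0.240, 1.03 and 1.77 CPM (difference 2.20 ± 0.45; adjusted p = 0.0085). Summed pericyte markers were 147 to 164 CPM in CD26- control and 54.0 to 102 CPM in CD26- CM cultures. In CD26+ control and CM cultures the sums were 73.9 to 84.2 and 81.1 to 173 CPM. Of 5 tested pericyte markers, CM raised 1 and lowered 2 in CD26- NFs, and raised 1 and lowered 1 in CD26+ NFs. In CD26- NFs Mcam went from 81.6 to 106 CPM down to 22.7 to 47.4, and Ndufa4l2 from 1.55 to 2.23 CPM up to 5.33 to 19.1. The part of pericytes in the result was not tested. Smad3, a transducer of TGF-beta, fell by 0.32 ± 0.08 (difference 0.54 ± 0.12; adjusted p = 0.013). Of 50 TGF-beta and BMP pathway genes 8 were higher and 3 lower, against 4.53% and 3.01% of all genes, with Smurf1, Skil and Smad7 among the higher and Bambi among the lower. The 8 became 1 without CD26+ control replicate 11, 2 to 4 without any other single control library, 13 without replicate 18 and 15 under the line block, and the 3 became 1 without replicate 11 and 6 under the line block.

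Skeletal muscle transcripts were present in CD26- cultures and at or near 0 in CD26+ cultures for several defining genes. Myh3, the embryonic myosin heavy chain, had 10, 7 and 3 counts in CD26- control and 78 to 446 in CD26- CM libraries, and 0 counts in all 9 CD26+ libraries. Myog, the differentiation factor myogenin, had 1, 2 and 4 counts in CD26- control, 16 to 186 in CD26- CM, and 0 or 1 in CD26+ libraries. Most members of the list passed the filter on low counts through the CD26- CM cultures, so no count over the list is given. The summed level of the list was 56.3 to 87.3 CPM in CD26- control and 67.2 to 185 CPM in CD26- CM cultures, and Acta1, skeletal actin, had mean levels of 63.0 and 48.5 CPM in them. The part of muscle cells in the result was not tested.

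Among the 61 genes with opposite signs were secreted inhibitors and ligands. Sfrp2, a secreted Wnt antagonist, rose from 4.84, 4.95 and 3.72 to 7.96, 9.21 and 15.1 CPM in CD26- and fell from 264, 321 and 243 to 103, 132 and 185 CPM in CD26+ NFs (difference -2.19 ± 0.32; adjusted p = 0.0023). Gdf10, a BMP family ligand, rose from 5.61, 6.15 and 5.28 to 7.52, 10.8 and 19.5 CPM and fell from 38.0, 46.0 and 35.6 to 19.5, 21.0 and 27.3 CPM (difference -1.92 ± 0.30; adjusted p = 0.0028). No CM library overlapped its controls for either gene, and Sfrp2 stayed higher in all CD26+ than in all CD26- cultures. The transmembrane collagen gene Col23a1 gave -2.38 ± 0.34 (adjusted p = 0.002) in the same sense. In the other direction, Acsl5, an acyl-CoA synthetase, went from 99.6, 104 and 101 to 76.3, 81.9 and 90.3 CPM in CD26- and from 56.5, 53.7 and 57.4 to 59.5, 68.0 and 69.5 CPM in CD26+ NFs (difference 0.55 ± 0.08; adjusted p = 0.0025). Apbb2, which binds the amyloid precursor protein, gave 0.59 ± 0.09 (adjusted p = 0.0025). Jam2, a junctional adhesion molecule, fell by 0.45 ± 0.13 and rose by 0.44 ± 0.14 (difference 0.89 ± 0.19; adjusted p = 0.011). Its relative F11r is not among the 61, as its CM effect passed in CD26+ NFs alone, and gave 0.85 ± 0.20 (adjusted p = 0.019).

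Of 42 cholesterol and fatty acid synthesis genes 1 passed, of 43 cyclic AMP genes 2, of 25 contractile genes 1, of 26 collagen modification genes 1, of 39 collagen chains 4, of 34 laminin, basement membrane and integrin genes 2 and of 40 Atf4 targets 3, which is 2.38% to 10.3% against 7.53% of all genes. Under the line block, which called 2516 genes, 7 collagen chains were higher and 9 lower, 3 and 7 collagen modification genes, 3 and 5 contractile genes, 8 and 0 laminin, basement membrane and integrin genes, 6 and 7 cyclic AMP genes, 3 and 2 cholesterol and fatty acid synthesis genes, and 1 and 15 Atf4 targets. CM lowered 14 and raised 4 collagen chains in CD26+ NFs and lowered 5 and raised 5 in CD26- NFs, with a median difference of 0.0383. Wnt (5 of 51), Notch and Hedgehog (4 of 28) and axon guidance genes (7 of 61) had members that passed in both directions. The 3 higher Wnt genes became 1 without replicate 2, 3, 10, 11, 16 or 17, 2 without any 1 of 9 other libraries and 5 without replicate 18 or under the line block, and the 2 lower ones 1 without replicate 2, 10, 11 or 12 and 4 under the block. The 2 higher Notch and Hedgehog genes became 0 without replicate 1 or 11, 1 without replicate 2, 3, 10, 14 or 16 and 5 under the block, and the 2 lower ones 1 without replicate 2, 3 or 11 and 4 without replicate 18. The 4 axon guidance genes with a positive difference became 2 without replicate 3, 11 or 12 and 8 without replicate 18, and the 3 with a negative difference became 8 without replicate 18 and 10 with voom weights or under the line block. The plot of list medians sets these beside the lists above.

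**Figure D5:**
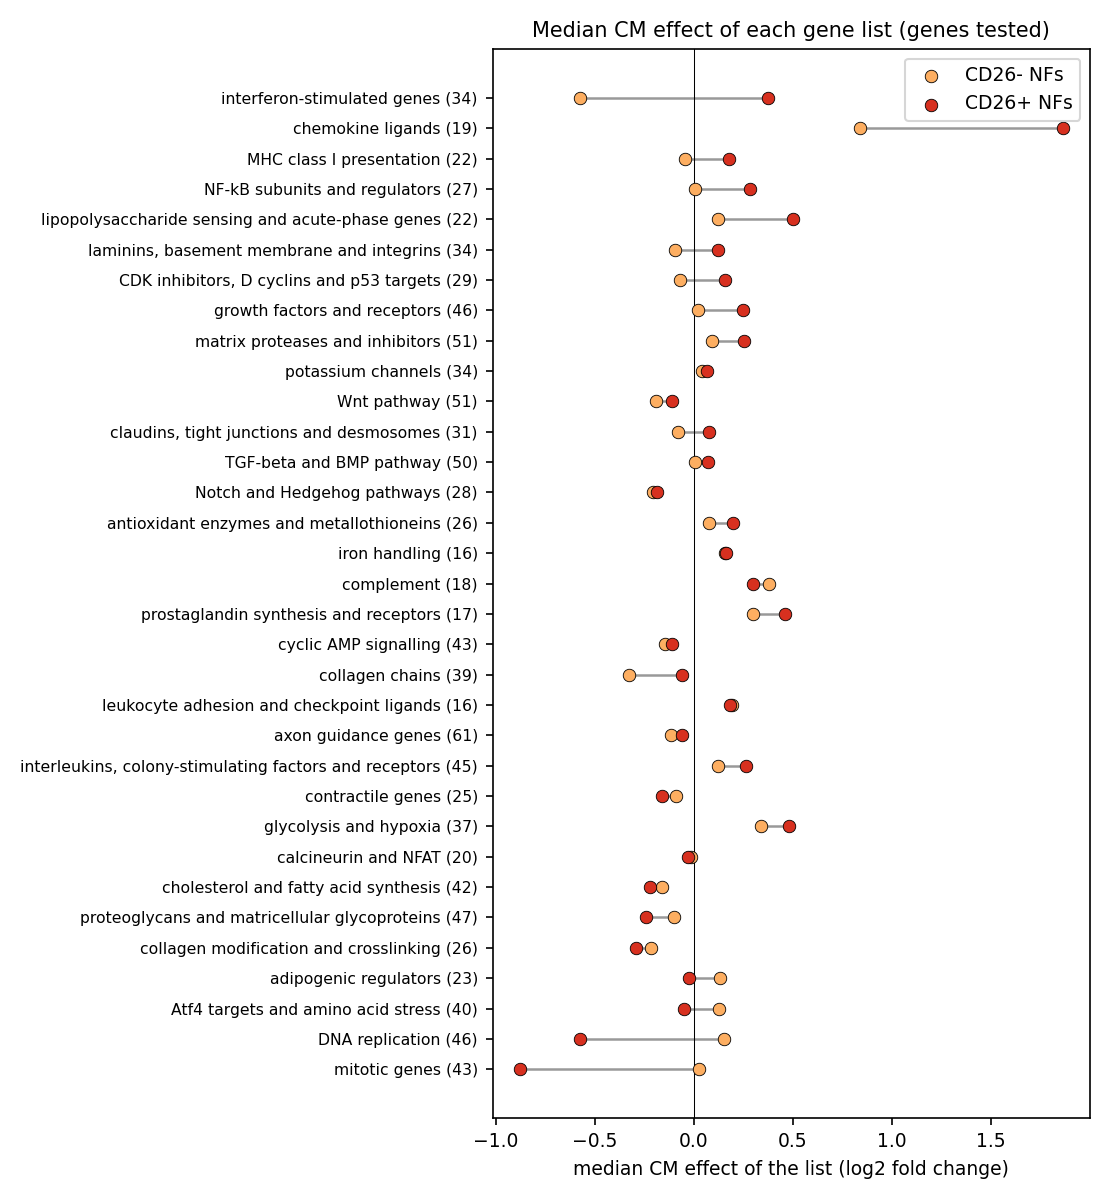
Median CM effect (log2 fold change, x axis) in CD26- NFs (orange) and CD26+ NFs (red) of the tested members of each pathway list (y axis, number tested in parentheses), ordered by the median difference. The widest gaps were those of interferon-stimulated genes (-0.574 and 0.374), chemokine ligands (0.84 and 1.86), DNA replication (0.152 and -0.576) and mitotic genes (0.0255 and -0.879).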

How the data were processed

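RNA of 18 fibroblast cultures was sequenced (TruSeq stranded mRNA, single-end), and the authors deposited 1 table of raw read counts per gene. The submitters' processing notes name HISAT2 2.1.0, HTSeq and the GRCm38 build. The annotation release and the strand setting of the counting are not given in the sources used here. Whether reads of overlapping genes were told apart by strand is therefore not known. Groups came from the labels. Of 55487 rows, 1 without a gene (0 counts) was left out, and 0 columns were unmapped.

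Counts were fitted with edgeR 4.0.16 in R 4.3.3 (TMM factors, filterByExpr, quasi-likelihood F test, 1 model of 4 groups) and p-values were adjusted by Benjamini-Hochberg over all 14273 genes, with calls at 0.05. Effects are the log2 fold changes that edgeR reports, ± SE, and CPM values are TMM-normalised. The SE was derived from the unshrunken fitted effect and the F statistic, so for genes of few counts it is approximate. The common biological coefficient of variation was 0.1168. Counts per library limit precision for genes of few CPM. Libraries given CM of the same line deviated together (r from 0.2469 to 0.4056 in 6 pairs, against -0.3154 to 0.2415 between lines), so the line was also fitted as a replicate block. Alternatives were DESeq2 1.42.0, limma 3.58.1 (voom with quality weights), other size factors, other filters, an epithelial covariate, a minimum log2 difference of 0.5, and leaving out each library or line. The code was tested on simulated data.

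Members and gene lists were chosen with earlier results of these data known. Named genes were the 4 with the smallest p in each class (among genes whose mean reached 5 CPM somewhere), up to 4 members past the threshold per list, Dpp4, the NF-kB subunits, and Ccl2, Ccl7, Ccl8, Cxcl2 and Cxcl12. Further genes were named after their values were seen. Promoter sequences are from RefSeq (GRCm38.p6), matched by symbol for 10670 of 14271 symbols, and both strands were searched. Some members of the lists are counted but not reported here by name.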

Additional observations from a re-analysis of the deposited data

Results flagged for a closer look

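The difference in CM effect between CD26+ and CD26- NFs passed in 1075 genes by edgeR. Among 136 named genes, tested in the 2 CM groups of 6 cultures, 25 values of 24 genes lay far from the other 5 cultures of their group. Chance gives about 1 in 20 of the 272 group tests. Of the 25, 18 were in CD26+ CM and 7 in CD26- CM cultures, and 17 were those of CD26+ CM replicate 18 (line 13-MCB-138).

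Replicate 18 was the lowest CD26+ CM culture for the inflammatory genes Ccl2 (490.5 CPM, others 761.1 to 983.9), Cxcl3 (7.506, others 18.8 to 32), Ccl8 (4.378, others 18.63 to 24.97), Lif (110.6, others 154.7 to 186.8) and C3 (272.7, others 1066 to 1409). It was also the lowest for Ifngr2 (81.94, others 104.6 to 119.1), Parp14 (15.19, others 21.91 to 24.64), H2-D1 (246.4, others 292.9 to 314.1) and B2m (256.9, others 299.8 to 328.5). The same held for Rab32 (68.54, others 93.14 to 111.7), Acsl5 (59.51, others 67 to 69.52), Col5a3 (499.8, others 761.2 to 874.2), Aldoc (4.557, others 8.799 to 10.73), Smurf1 (129.1, others 158.9 to 169.1), Ptch1 (29.85, others 39.12 to 43.14) and Gdnf (3.664, others 9.711 to 12.42). It was the highest for Prkaca (117.1, others 102.3 to 106.2).

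Tnnt3 was at 0 CPM in CD26+ CM replicate 15 (others 0.1585 to 0.2681), a flag at the floor of 0 reads against 2 or 3 in the others. Among CD26- CM cultures, replicate 4 was lowest for Lif (257.7, others 320.2 to 362.6), Ptgs2 (1768, others 2493 to 2813) and Cgnl1 (251.6, others 298.5 to 323). Replicate 7 was highest for Psme2 (70.25, others 58.24 to 60.21) and Srebf1 (86.62, others 72.01 to 76.93) and lowest for Fbn2 (10.21, others 13.46 to 14.97). Replicate 6 was lowest for Trib3 (22.46, others 29.3 to 33.93).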

How the results depend on the processing

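Leaving aside the minimum log2 difference of 0.5, a stricter test, all 131 named genes past the threshold kept their sign under the 32 alternatives, and 66 passed under every one that tested them. With the line as a replicate block 0 of them were lost, under DESeq2 0, with the epithelial covariate 4 and without CD26+ control replicate 11 59. The number of genes past the threshold moved far more, and the cause was not tested. DESeq2 gave 1528 genes, with 108 in both populations with the same sign. Without a filter 745 passed, 262 of them negative, 130 in CD26- NFs alone and 28 opposite. At a mean of at least 5 CPM 25 passed the log2 limit of 2. With voom weights 3077 passed (1564 positive, 1513 negative, 116 past the log2 limit), with 3973 CM effects in CD26- NFs, 1801 in CD26+ NFs alone, 620 in CD26- NFs alone, 273 same sign and 237 opposite. With the line as a replicate block 2516 passed (1344 positive, 1172 negative), with 3784 CM effects in CD26- NFs, 1315 in CD26+ NFs alone, 561 in CD26- NFs alone, 362 same sign and 170 opposite. The epithelial covariate gave 1351 CM effects in CD26- NFs and 40 opposite genes. The minimum log2 difference of 0.5 left 27 (20 positive, 7 negative). Leaving out a library or line gave 339 to 2412 genes, 211 to 1252 positive, 128 to 1202 negative, 31 to 101 past the log2 limit, 825 to 2893 CM effects in CD26- and 2756 to 5025 in CD26+ NFs, 225 to 1549 in CD26+ NFs alone, 55 to 379 in CD26- NFs alone, 21 to 220 same sign and 11 to 154 opposite. Without CD26+ CM replicate 18 the split was 1143 positive and 1202 negative.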
